A study of Mus musculus with 10 samples.

Results

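Genes for the release of neurotransmitter from synaptic vesicles were followed in retinas of wild-type mice and of mice of the strain B6.129S2-Il6tm1Kopf/J, an interleukin-6 (Il6) knockout. The set holds 38 genes chosen by name, which fill 39 rows of a count table of 36115 genes, because Rab3a has a second row on a scaffold. The table covers 10 RNA sequencing libraries, 5 of wild type (W1 to W5) and 5 of the labelled knockout (K1 to K5). All came from naive animals aged 3 months on a C57BL/6 background, and total RNA was taken from the retina with no sorting of cells stated. As the strain name records, the allele was made in cells of another strain and crossed to C57BL/6, and every cell of the animal carries it. The labels do not say that each library is a separate mouse, and p-values therefore reflect only how far these libraries spread, which may be technical.

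A synaptic vesicle is filled with transmitter, held at the membrane by scaffold proteins, primed, and fused when calcium enters. Fusion is driven by SNARE proteins, which draw the vesicle and cell membranes together. Some synaptotagmins sense the calcium, and complexins regulate the SNARE complex. Rods, cones and bipolar cells of the retina release glutamate continuously at ribbon synapses, where a plate built of RIBEYE, a product of Ctbp2, tethers vesicles near the calcium channels. Amacrine and ganglion cells use conventional synapses, like those of the brain. Ribbon synapses use Stx3 and complexins 3 and 4 where conventional synapses use Stx1a and complexins 1 and 2, and they lack synapsins.

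The libraries held 30433373 to 38857374 counted reads. The 37 genes of the set tested on chromosomes had from 3131 (Stx1a) to 770898 (Slc17a7) reads over the 10 libraries. Cone markers summed to 1137 to 1415 counts per 1000000 counted reads (CPM) over 7 genes, Arr3 among them, in every library. Lens markers were near 0, at 0.473 to 1.02 CPM summed over 5 genes. Pigment epithelium markers varied from 39.1 to 404 CPM over 7 genes, and the groups overlapped. Il6 itself had 0 or 1 reads in each wild-type library and 3 to 7 reads in each library labelled knockout. This is the reverse of a loss of Il6 reads, but the reads are few and the difference was not tested. The labels could not be checked from it, and every direction below is that of the libraries as labelled. A count per gene does not separate the interrupted part of Il6 from the rest.

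Of the 38 rows tested, 1 gene, the calcium sensor Syt2, was lower in the libraries labelled knockout and none was higher. A call is an adjusted p under 0.05 from edgeR's quasi-likelihood test, with Benjamini-Hochberg adjustment over all tested genes. The share called was 2.63%, beside a background of 2.03% of 18965 tested genes (0.859% higher and 1.17% lower). At an edgeR p under 0.05 before adjustment stood 5 rows (13.2%), against 13.8% of all genes. Both shares are near the background, so neither is a result about the set. The median log2 fold change, labelled knockout over wild type, was -0.034 over the rows tested and 0.0018 over all genes. Leaving out 1 library at a time moved the member median between -0.070 (without K3) and 0.0015 (without W5), and it was -0.058 without W4 and -0.011 without K2. With all libraries the log2 fold change was negative in 23 of the 38 rows (60.5%), against 49.6% of all genes.

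For 37 of the 38 rows the 95% interval of the fold change lay inside 1.5-fold in either direction, as it did for 64.7% of all tested genes. The share of all genes includes genes with few reads, whose intervals are wider, and was not matched for read count. The exception was the scaffold copy of Rab3a, with 115 reads in all. Over the 37 genes on chromosomes, the log2 fold change ran from -0.32 (Syt2) to 0.30 (Unc13b). Its standard error (SE) ran from 0.059 (Napa) to 0.15 (Unc13a).

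**Figure D1:**
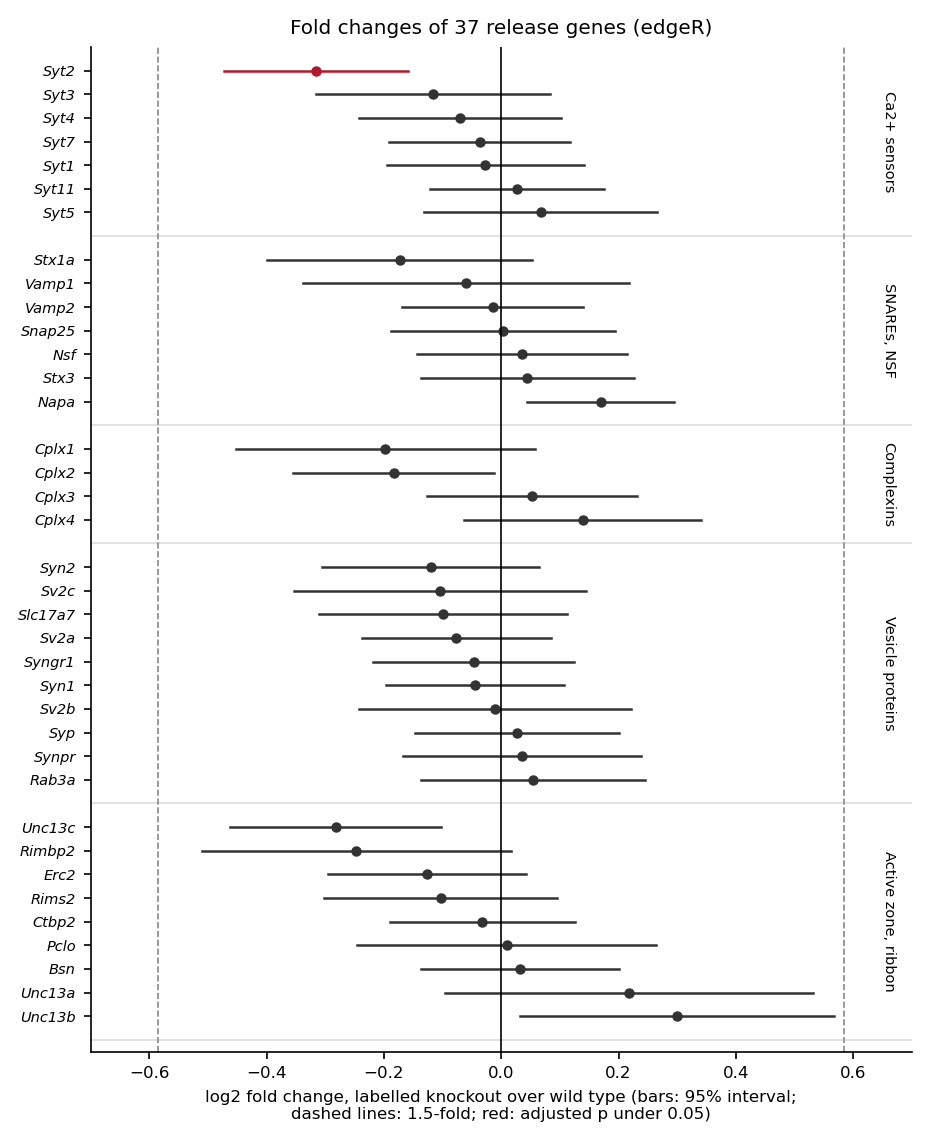
Log2 fold change of each of the 37 genes, labelled knockout over wild type, with its 95% interval from the edgeR fit, grouped by role. Syt2 is the gene with an adjusted p under 0.05, and every interval lies between the lines at 1.5-fold.

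Promoter stretches are printed for Syt2, the gene that was called, with both of its start sites in RefSeq (GRCm38.p6), and for Syn1 and Cplx3, which stand for conventional and ribbon synapses. Each stretch lies within the 250 bases before the start and outside annotated exons, and reads 5′ to 3′ on the strand of the gene. Capitals mark complete matches, on either strand, to a GC box (GGGCGG), an E-box (CACGTG), a cyclic AMP response element (TGACGTCA) or the neuron-restrictive element RE1 with at most 3 mismatches. No capitals of different motifs overlap.
Syt2 upstream start, chr1:134646521-134646611, forward strand: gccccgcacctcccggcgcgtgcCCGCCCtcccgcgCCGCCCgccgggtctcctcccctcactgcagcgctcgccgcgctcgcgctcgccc
Syt2 downstream start, chr1:134709050-134709299, forward strand: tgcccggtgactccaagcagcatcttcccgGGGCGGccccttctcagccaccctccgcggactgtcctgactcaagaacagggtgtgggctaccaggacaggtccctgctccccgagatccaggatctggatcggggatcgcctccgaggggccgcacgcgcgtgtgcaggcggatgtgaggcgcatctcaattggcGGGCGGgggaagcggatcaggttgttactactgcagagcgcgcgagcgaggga
Syn1, chrX:20921005-20921168, reverse strand: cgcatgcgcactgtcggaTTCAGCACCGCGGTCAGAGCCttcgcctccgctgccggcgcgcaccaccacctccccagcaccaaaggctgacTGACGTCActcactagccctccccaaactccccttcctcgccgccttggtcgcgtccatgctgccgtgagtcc
Cplx3, chr9:57606282-57606531, reverse strand: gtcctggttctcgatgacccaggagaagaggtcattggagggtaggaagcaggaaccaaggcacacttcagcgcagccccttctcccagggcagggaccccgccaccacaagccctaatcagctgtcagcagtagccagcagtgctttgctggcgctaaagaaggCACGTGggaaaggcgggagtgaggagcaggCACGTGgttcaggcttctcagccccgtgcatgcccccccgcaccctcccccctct

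RefSeq windows of 250 bases before the start were found for 31 of the 38 genes (40 windows). The GC box was in 21 of the 40 windows (52.5%), Syt2's among them, against 32.7% of 32851 windows of all genes. The median GC content was 61.2% in the windows of the set and 52.4% in all windows. RE1 matched in Syn1, 232 to 212 bases before its start with 1 mismatch, and in 0.0761% of all windows. The E-box was in 5 windows (12.5%) against 6.02%, and in Cplx3 it stood at 85 to 80 and at 55 to 50 bases before the start. The motif of the photoreceptor factor CRX (TAATCC) was in 4 windows, of Syp, Sv2b and Ctbp2 (10%), against 6.25% of all. The cyclic AMP element was in the Syn1 window alone (2.5%) against 1.55%, and an NRF1 site in that of Bsn (2.5%) against 0.782%. These matches describe letters in the windows and were set against no difference between groups.

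Synaptotagmins are membrane proteins with C2 domains, which in some members, but not all, bind calcium. Syt1, a main fast sensor of the brain, was the highest of the 7 at 164 CPM per kb of exon in wild type, and Syt2, its close relative, was the lowest at 6.24 CPM per kb. Between them stood Syt11 at 50.0, Syt4 at 43.2 and Syt7, a slower sensor of high affinity, at 18.2 CPM per kb. Syt5, at 8.76 CPM per kb, and Syt3, at 8.30 CPM per kb, do not differ beyond the spread of their libraries.

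Syt2 (ENSMUSG00000026452.15, chromosome 1, 134646677 to 134762593, GRCm38, forward strand) stood at 49.1, 48.5, 49.6, 45.0 and 46.1 CPM in W1 to W5 and 38.7, 38.1, 44.4, 34.3 and 36.0 CPM in K1 to K5. Every library labelled knockout lay below every wild-type library, with K3 closest to them. Groups that do not overlap were seen in 2 members (5.26%), Syt2 and Napa, and in 3.48% of all tested genes. The mean of Syt2 was 47.7 ± 2.03 CPM in wild type against 38.3 ± 3.84 CPM in the labelled knockout (SD, n = 5), a log2 fold change of -0.32 ± 0.074 (SE) with an edgeR adjusted p of 0.0388. In the authors' deposited table the log2 fold change of Syt2 was -0.29 and its adjusted p 0.00869, and 1 of 38 members passed there, beside 3.37% of all genes.

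DESeq2 and limma-voom also called Syt2 and no other member, where they called 3.16% and 1.8% of all genes. The call of Syt2 was lost without W1, W3, W5, K1, K2, K4 or K5, and without W2 and W5 together. Over those tools and settings its adjusted p ran from 0.00903 to 0.116 over 18 alternatives, and its log2 fold change from -0.37 to -0.28. Its exons share no bases with those of another gene in GENCODE M21.

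Syt1 stood at 1348, 1469.9, 1369, 1267 and 1375 CPM in W1 to W5 and 1353, 1245, 1484, 1365 and 1255 CPM in K1 to K5. The groups overlap, with K3 highest and K2 lowest. The log2 fold change was -0.027 ± 0.079 (SE), with a 95% interval of -0.20 to 0.14 and an edgeR adjusted p of 0.927. The other synaptotagmins did not pass the test either, with log2 fold changes of -0.12 (Syt3), -0.071 (Syt4), -0.037 (Syt7), 0.027 (Syt11) and 0.067 (Syt5). The ratio of Syt1 to Syt2 per kb was 26.3 ± 1.22 in wild type and 32.2 ± 2.56 in the labelled knockout (SD, n = 5). It ran from 25.1 to 27.8 and from 29.9 to 36.5, so the groups do not overlap. The ratio holds Syt2, whose own groups do not overlap, so it is not a separate result. The ratios of levels given here were formed after the levels were seen and were not tested.

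**Figure D2:**
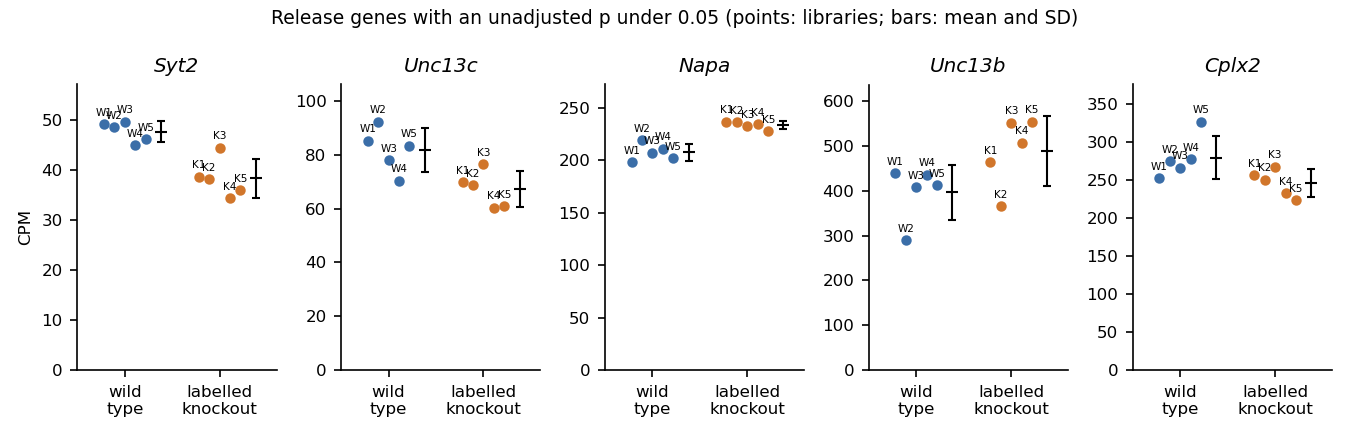
CPM in each library for the 5 genes with an unadjusted edgeR p under 0.05, with the mean and SD of each group. The groups do not overlap in Syt2 and Napa and do in Unc13c, Unc13b and Cplx2.

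None of the 7 genes for SNARE proteins and their disassembly passed the test. Vamp2, the vesicle SNARE of most fast synapses, was the highest at 231 CPM per kb in wild type, followed by its membrane partner Snap25 at 181 CPM per kb. Vamp2 stood at 837, 917, 842, 843 and 961 CPM in W1 to W5 and 878, 901, 876, 886 and 815 CPM in K1 to K5. The libraries labelled knockout lie inside the wild-type range apart from K5, the lowest of all. The log2 fold change of Vamp2 was -0.014 ± 0.072 (SE), with an edgeR adjusted p of 0.958. Snap25 stood at 1226 ± 138 CPM in wild type against 1229 ± 83.3 CPM in the labelled knockout (SD, n = 5), with an edgeR adjusted p of 0.993. Vamp1, a second vesicle SNARE, was far lower at 6.41 CPM per kb, with a log2 fold change of -0.060.

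Stx3, the ribbon syntaxin, stood at 118 CPM per kb in wild type, and Stx1a, a syntaxin of conventional synapses, at 3.54 CPM per kb. The ratio of Stx3 to Stx1a per kb was 33.5 ± 2.59 in wild type and 39.4 ± 6.97 in the labelled knockout (SD, n = 5). Its ranges overlap. The log2 fold changes were 0.044 for Stx3 and -0.17 for Stx1a, at edgeR adjusted p of 0.875 and 0.516.

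Napa encodes alpha-SNAP, the adaptor through which the ATPase NSF pulls spent SNARE complexes apart. It stood at 199, 219, 207, 211 and 202 CPM in W1 to W5 and 237, 237, 232, 235 and 228 CPM in K1 to K5. Every library labelled knockout lay above every wild-type library. The mean was 208 ± 8.06 CPM in wild type against 234 ± 3.82 CPM in the labelled knockout (SD, n = 5). The log2 fold change was 0.17 ± 0.059 (SE), with an unadjusted p of 0.0113 and an edgeR adjusted p of 0.187, which does not pass. In the authors' deposited table the adjusted p of Napa was 0.0701. Nsf stood at 583 ± 49.4 CPM in wild type against 597 ± 54.2 CPM in the labelled knockout (SD, n = 5), with an edgeR adjusted p of 0.907.

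The 4 complexins differed in level, and none passed the test. Levels in whole retina do not separate the number of cells of a type from the RNA per cell. Cplx4 and Cplx3, which serve ribbon synapses, stood at 231 and 144 CPM per kb in wild type. Cplx2 and Cplx1, which serve conventional synapses, stood at 56.7 and 51.9 CPM per kb, a difference within their spread. Cplx4 stood at 404, 459, 496, 396 and 484 CPM in W1 to W5 and 570.5, 444, 459, 543 and 448 CPM in K1 to K5. K1 and K4 lie above all wild-type libraries and the other 3 lie among them. The log2 fold change of Cplx4 was 0.14 ± 0.095 (SE), with an edgeR adjusted p of 0.571, and that of Cplx3 was 0.052 ± 0.084 (SE), with 0.844.

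Cplx2 stood at 252, 275, 266, 277 and 326 CPM in W1 to W5 and 256, 250.1, 267, 233 and 223 CPM in K1 to K5. W5 was the highest, and the groups overlap. This gave a log2 fold change of -0.18 ± 0.080 (SE), with an unadjusted p of 0.0373 and an edgeR adjusted p of 0.320. Without W5 it was -0.12. Cplx1 had 155 CPM in W5 against 92.0 to 115 CPM in the other wild-type libraries. Its log2 fold change of -0.20 ± 0.12 (SE) became -0.058 without W5 and 0.0075 without W2 and W5 together. The level of complexins 3 and 4 over that of complexins 1 and 2, per kb, was 3.50 ± 0.394 in wild type and 4.26 ± 0.390 in the labelled knockout (SD, n = 5). The ranges of 2.88 to 3.91 and 3.71 to 4.80 overlap, and W5 had the lowest ratio.

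No vesicle protein passed the test, and their log2 fold changes on chromosomes ran from -0.12 (Syn2) to 0.054 (Rab3a). Slc17a7 encodes VGLUT1, which loads glutamate into the vesicles of photoreceptors and bipolar cells, and was the highest gene of the set at 421 CPM per kb in wild type. It stood at 1990.3, 2565, 2267, 2086 and 2454 CPM in W1 to W5 and 2499, 2174, 1964, 1998 and 1972 CPM in K1 to K5. K3, K4 and K5 lie near the lowest wild-type library, W1, and K1 lies near the top. This gave a log2 fold change of -0.099 ± 0.099 (SE), with an edgeR adjusted p of 0.728. The ratio of Slc17a7 to Slc17a6, the VGLUT2 gene of ganglion cells, was 38.5 ± 7.45 per kb in wild type and 42.3 ± 13.8 in the labelled knockout (SD, n = 5).

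Syp encodes the vesicle membrane protein synaptophysin and stood at 846 ± 84.1 CPM in wild type against 861 ± 38.9 CPM in the labelled knockout (SD, n = 5). Of its relatives, Synpr stood at 259 ± 35.4 CPM in wild type against 265 ± 24.6 CPM in the labelled knockout (SD, n = 5), and Syngr1 at 350.1 ± 24.7 CPM in wild type against 339 ± 33.5 CPM in the labelled knockout (SD, n = 5). Their log2 fold changes were 0.027 (Syp), 0.036 (Synpr) and -0.047 (Syngr1). Among the SV2 glycoproteins of the vesicle, Sv2a (104 CPM per kb in wild type) and Sv2b (61.8) were far above Sv2c (4.52), with log2 fold changes of -0.077, -0.010 and -0.10. Syn1 and Syn2, synapsins that tether reserve vesicles at conventional synapses, stood at 45.1 and 5.47 CPM per kb. They had log2 fold changes of -0.045 and -0.12 at edgeR adjusted p of 0.838 and 0.597. Rab3a, the vesicle GTPase that binds RIM proteins, stood at 16.5 ± 1.48 CPM in wild type against 17.1 ± 1.36 CPM in the labelled knockout (SD, n = 5) on chromosome 8. Its scaffold copy stood at 0.411 ± 0.179 CPM in wild type against 0.243 ± 0.0980 CPM in the labelled knockout (SD, n = 5), with an edgeR adjusted p of 0.430. Reads of near-identical copies can be assigned to either, so both levels are uncertain.

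**Figure D3:**
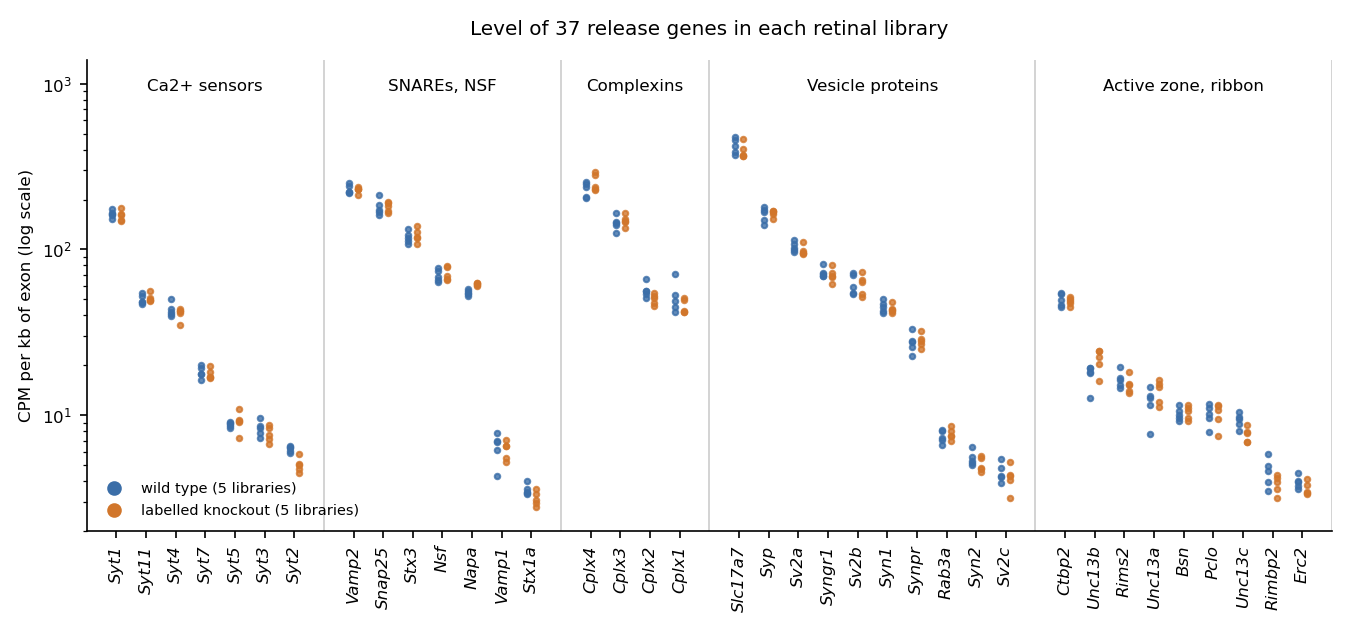
Level of each gene in each library, in CPM per kb of exon on a log axis, for wild type and the labelled knockout, grouped by role. Wild-type levels span 119-fold, from Stx1a to Slc17a7, while the groups overlap in all genes drawn but Syt2 and Napa.

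None of the 9 tested genes of the active zone and ribbon passed the test. Ctbp2, whose count combines the ribbon protein RIBEYE with the corepressor CtBP2, was the highest at 49.6 CPM per kb in wild type. It stood at 279.6, 333, 307, 287 and 338 CPM in W1 to W5 and 305, 296, 311, 319.9 and 278 CPM in K1 to K5. The groups overlap over most of their range. Its log2 fold change was -0.032 ± 0.074 (SE), with an edgeR adjusted p of 0.901. The giant scaffolds Bsn and Pclo, which organise the active zone, stood at 10.2 and 10.1 CPM per kb, with log2 fold changes of 0.031 and 0.0093. Rims2, which links vesicles to calcium channels, Erc2, a scaffold that binds RIM, and Rimbp2, a linker of RIM and channels, had log2 fold changes of -0.10, -0.13 and -0.25. Their edgeR adjusted p were 0.691, 0.522 and 0.403. Rims1 had 0 reads in wild type, which allows up to 0.0171 CPM over the group (3 reads, counting error only). It had 1 read in K3, so it was not tested between groups. Why it holds so few reads was not tested either, and the bound is not read as absence of Rims1 from the retina.

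The Unc13 (Munc13) proteins prime docked vesicles by opening syntaxin, and none of the 3 genes passed the test. Unc13c stood at 85.2, 92.3, 77.9, 70.4 and 83.4 CPM in W1 to W5 and 69.9, 68.8, 76.4, 60.3 and 60.9 CPM in K1 to K5. K3 alone of the libraries labelled knockout lies above the lowest wild-type library, W4. Its log2 fold change was -0.28 ± 0.085 (SE), with an unadjusted p of 0.00445 and an edgeR adjusted p of 0.117. With 1 surrogate variable in the model the adjusted p of Unc13c was 0.0499, within a range of 0.0499 to 0.296 over 18 alternatives. In the authors' deposited table it was 0.0775.

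Unc13b, an isoform of photoreceptor ribbons, stood at 439, 289.7, 407, 436 and 412 CPM in W1 to W5 and 463, 365, 552, 507 and 554 CPM in K1 to K5. W2 stood far below the other wild-type libraries, and K2 was the lowest of the labelled knockout. The fitted log2 fold change was 0.30 ± 0.13 (SE), with an unadjusted p of 0.0306 and an edgeR adjusted p of 0.300. Without W2 it was 0.21, with an unadjusted edgeR p of 0.0704. Unc13a, the main isoform of brain synapses, had a log2 fold change of 0.22 ± 0.15 (SE) with an edgeR adjusted p of 0.565, and 0.094 without W2.

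Genes of ribbon and of conventional synapses were set side by side as lists. The list for ribbon synapses held 10 genes (Bsn, Cplx3, Cplx4, Ctbp2, Erc2, Pclo, Rims2, Slc17a7, Stx3 and Unc13b). Of these, none passed the test, 4 had a negative log2 fold change and the median was 0.020. That list is not particular to ribbons, since Bsn, Pclo, Erc2 and Rims2 serve active zones in general. The Ctbp2 count also includes the corepressor. Of 10 conventional isoforms (Cplx1, Cplx2, Slc17a6, Slc17a8, Slc32a1, Stx1a, Syn1, Syn2, Syt2 and Unc13a), 1 was lower (Syt2), 7 had a negative log2 fold change and the median was -0.15. Syt2 is also known from some cone bipolar cells, which bear ribbons, so it is not particular to conventional synapses. Without Syt2, a choice made after its call was known, that list held 9 genes, of which 0 were called and 6 had a negative log2 fold change, with a median of -0.12. The genes listed for ribbon synapses summed to 4778 to 5538 CPM in wild type against 4873 to 5599 CPM in the labelled knockout. Conventional isoforms summed to 922 to 1107 CPM in wild type against 892 to 1026 CPM in the labelled knockout. The groups overlap in both sums, and the difference between the lists was not tested.

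Amacrine cell markers summed to 1258 to 1291 CPM in wild type against 1077 to 1311 CPM in the labelled knockout. None of the 8 was called and 5 had a negative log2 fold change. Ganglion cell markers summed to 701 to 1023 CPM in wild type against 694 to 936 CPM in the labelled knockout. None of the 9 was called, 8 had a negative log2 fold change and the median was -0.19. Bipolar cell markers summed to 1283 to 1555 CPM in wild type against 1299 to 1655 CPM in the labelled knockout, with none of 8 called, 2 negative log2 fold changes and a median of 0.029. The bipolar marker Cabp5, named after its value was seen, stood at 176, 145, 157, 120.4 and 139 CPM in W1 to W5 and 116, 133, 104, 100.5 and 95.01 CPM in K1 to K5. Its log2 fold change was -0.43 ± 0.11 (SE), with an edgeR adjusted p of 0.0506, just outside the threshold, and the groups overlap. The part of these markers in the lower level of Syt2 was not tested. In whole retina, fewer cells of a type and less RNA per cell cannot be told apart.

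Of 65 other tested genes that start within 2 Mb of Syt2 on chromosome 1, 7 were called (10.8%), against 2.03% of all tested genes and 3.01% of those on that chromosome. All 7 were higher in the labelled knockout, while Syt2 was lower. The nearest was Rabif, a chaperone of Rab GTPases that act in exocytosis, which starts 0.152 Mb from the start of Syt2. It stood at 33.9 ± 3.28 CPM in wild type against 42.1 ± 2.49 CPM in the labelled knockout (SD, n = 5), a log2 fold change of 0.31 with an edgeR adjusted p of 0.0484. This call was lost with limma-voom and on leaving out any 1 library except W5.

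Shisa4, a membrane protein gene 0.724 Mb from Syt2, stood at 21.04, 32.2, 28.9, 25.6 and 50.7 CPM in W1 to W5 and 82.6, 92.5, 72.9, 72.6 and 70.3 CPM in K1 to K5. All libraries labelled knockout lie above all of wild type. Its log2 fold change was 1.30, and that of Lmod1, a leiomodin of smooth muscle, was 1.55, with edgeR adjusted p of 0.000644 and 0.000905. Both calls held in all 18 alternatives. Fmod, a matrix proteoglycan, Gpr37l1, an orphan receptor, Etnk2, an ethanolamine kinase, and Tmem9, a membrane protein, had log2 fold changes of 1.24, 1.33, 0.83 and 0.30. These calls were lost in 1, 7, 6 and 8 of the 18 alternatives. The part of this stretch in the lower level of Syt2 was not tested.

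**Figure D4:**
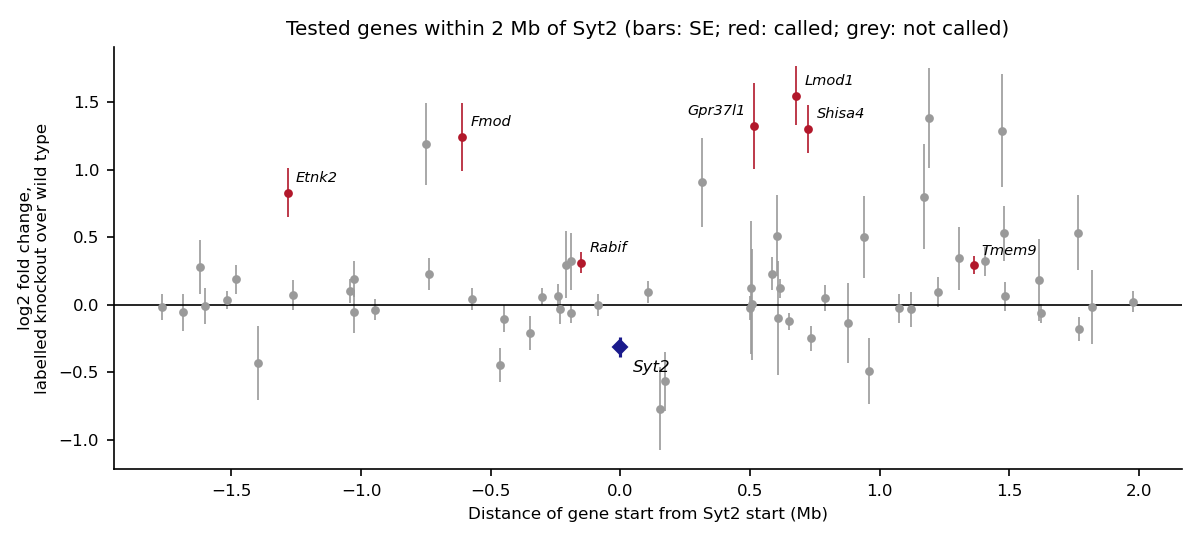
Log2 fold change (with its SE) of the 65 tested genes within 2 Mb of Syt2 against the distance of their start from that of Syt2 in Mb. The 7 called genes lie above 0 and Syt2 lies below it at -0.32.

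Of 106 tested genes in lists of the rest of the release pathway, 2 were lower, Syt6 and Rab27b, and none was higher, beside 2.03% of all tested genes. The median log2 fold change was -0.0042. Syt6, a synaptotagmin, stood at 17.6, 17.1, 20.7, 20.8 and 20.6 CPM in W1 to W5 and 14.8, 11.6, 16.3, 14.1 and 13.8 CPM in K1 to K5. Rab27b, a GTPase of secretory vesicles, stood at 22.4, 26.7, 21.7, 25.1 and 27.3 CPM in W1 to W5 and 20.4, 18.5, 19.0, 16.9 and 14.3 CPM in K1 to K5. In both genes every library labelled knockout lies below every wild-type library. This gave log2 fold changes of -0.46 ± 0.10 (SE) for Syt6 and -0.47 ± 0.10 (SE) for Rab27b at edgeR adjusted p of 0.0288 and 0.0275. In the authors' deposited table the adjusted p were 0.00184 and 0.00236. The call of Syt6 was lost without W3, W4, W5, K2, K4 or K5, with adjusted p of up to 0.0772. That of Rab27b was lost without W4, W5, K4 or K5 and without W2 and W5 together, with up to 0.0972.

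By step, Syt6 was the 1 gene called of 16 further calcium sensors and C2 proteins, and Rab27b of 23 further vesicle proteins and transporters. None was called of 20 further SNAREs and partners, of 25 active zone partners or of 22 genes of vesicle retrieval. The medians of these 5 lists were -0.011, -0.022, -0.014, 0.018 and 0.021. At an unadjusted edgeR p under 0.05 there were 14 of 106 genes, beside 13.8% of all genes. The abundant Napb, a SNAP gene related to Napa, had a log2 fold change of 0.025, and Cadps, of a priming factor, had 0.038. Rph3a, of a Rab3 effector, had -0.0046, and Sncb and Scamp5, of vesicle-associated proteins, had 0.0088 and -0.0038. The photoreceptor genes Unc119 and Cacna2d4 had 0.034 and 0.059, and Dnm1 and Cltc, of dynamin and clathrin, had -0.0045 and -0.059. The lowest edgeR adjusted p among these 9 genes was 0.830 (Cltc).

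Libraries of the same group also differed across the set. W5 was the highest library for 13 of the 37 genes and the lowest for none, and its median deviation from the mean of the 10 libraries was 0.14 on the log2 scale. K2 and K5 were the lowest for 7 genes each. Of the 6 genes with over 10 kb of exon, W2 was the lowest library in 4 (Unc13b, Unc13a, Bsn and Vamp1) and K2 in the other 2 (Pclo and Rims2). On the log2 scale Unc13a lay at -0.73 and Unc13b at -0.59 from their means in W2.

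Across the 37 genes, Spearman's rank correlation of exon length with the deviation was -0.63 in K2, -0.33 in W2, 0.55 in W1 and 0.45 in K3. This is across genes, which share a library and are not independent replicates. Among all genes above 10 CPM on average, the longest 2067 lay at a median of -0.044 in W2 and 0.065 in W1, and the shortest 2068 at 0.10 and -0.11. The member pattern and that of all genes did not always run together. In K5 the longest genes lay lowest of the 10 libraries, at -0.070, but the correlation over the 37 genes was 0.22, and Unc13a and Unc13b were highest there. In K2 the longest and shortest of all genes lay at -0.023 and 0.034. The part of length in the values of the Unc13 genes was not tested. Without W2 and W5 together, an alternative chosen after seeing the data, 0 members were called and the median log2 fold change of the members was 0.014.

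**Figure D5:**
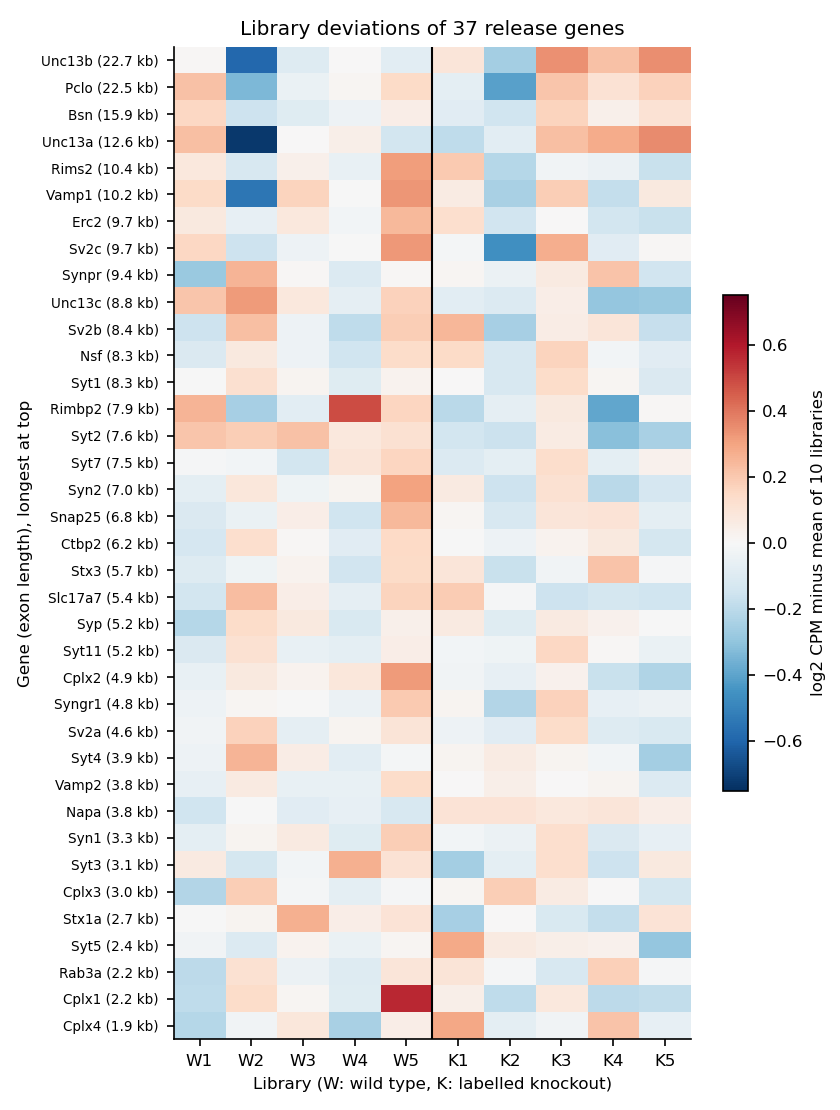
Deviation of each of the 37 genes in each library from its mean over the 10 libraries, in log2 CPM, with genes ordered by exon length. The 6 genes with over 10 kb of exon lie below their means in W2 and K2, and W5 is the highest library in 13 genes.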

How the data were processed

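The authors deposited whole-number counts of reads per gene, with no normalization, for 10 retinal libraries. The submitters' processing notes name STAR 2.5.3a and featureCounts 1.15.2, with GRCm38.p5 as the build, and DESeq2 1.14 beside bcl2fastq and FastQC. Strand and multi-mapping settings are not given in the sources used here. The deposited table also holds, per the file headers, the authors' DESeq2 comparison: a mean signal (not used), log2 fold changes, p-values (unadjusted and adjusted) and a mark of significance of 0 or 1, an other value that was not used.

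Libraries were grouped by genotype label; the numbers 1 to 5 follow accession order and pair nothing. Members and gene lists were chosen with earlier results of these data known. Genes passing edgeR's filterByExpr (minimum count 10, total 15) were scaled with TMM and tested with edgeR 4.0.16 (glmQLFit, glmQLFTest; R 4.3.3), with genotype as the only term and Benjamini-Hochberg adjustment over 18965 genes. The SE is the absolute log2 fold change over the square root of F, and 95% intervals use the t distribution of the fit. CPM use TMM-scaled totals, and CPM per kb divide by the union of GENCODE M21 exons, matched by identifier for 36003 of 36115 genes. A total of 13 members share exon bases with another gene, 11 of them with one on the opposite strand, where unstated strand handling makes counts uncertain. No pair of libraries within a group differed by as little as sampling noise (smallest chi-square per degree of freedom 10.9). The test was checked on simulated data. Alternatives used DESeq2 1.42.0, limma-voom 3.58.1, sva 3.50.0, other size factors and filters, and left out each library. Every member is accounted for. Values per library and full statistics were given to members called, to those with an unadjusted p under 0.05, and to the highest per kb of each role. Of the other lists, called genes and the 2 of highest CPM were named. Of genes within 2 Mb of a called member, called ones were named. Vamp8, Nrxn2, Cabp4 and Lim2 were not analysed here, and some genes that these rules would name are not reported here.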

Additional observations from a re-analysis of the deposited data

Results flagged for a closer look

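In 5 of the 76 groups of 5 libraries examined for the members, a single library stood apart from the other 4, with a gap of more than 0.71 of the range of its group. Chance alone gives about 1 in 20. Unc13b stood at 290 CPM in W2 against 407 to 439 CPM in the other wild-type libraries. Syngr1 stood at 393 CPM in W5 against 333 to 347 CPM. Among the libraries labelled knockout, Syt11 stood at 292 CPM in K3 against 254 to 263 CPM, Sv2a at 516 CPM in K3 against 433 to 456 CPM, and Syt4 at 137 CPM in K5 against 161 to 171 CPM.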

How the results depend on the processing

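All genes called higher numbered 163 as reported, 321 with DESeq2, 303 with 1 surrogate variable, 298 with every gene kept whatever its count, and 293 without W2 and W5 together, an alternative chosen after seeing the data. Those called lower numbered 222, and 442, 355 and 406 under the first 3 of these. On leaving out 1 library at a time the counts ran from 71 to 253 higher and from 140 to 289 lower. No member was called higher under any alternative. Members called lower numbered 2 with 1 surrogate variable (Syt2 and Unc13c), 0 without W2 and W5 together, and 0 to 1 with 1 library left out. Other release genes called higher went from 0 to 1 with DESeq2, 1 with limma-voom, 2 with no filter, 2 with 1 surrogate variable, 1 without W2 and W5 together, and 0 to 1 with 1 library left out. Those called lower ran from 0 to 2 with 1 library left out. The causes were not tested.

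Among uncalled genes, log2 fold changes turned sign as follows: -0.0082 for Pclo, 0.018 for Sv2b and 0.0052 for Scamp5 with 1 surrogate variable; -0.039 for Pclo, 0.14 for Sv2b, 0.058 for Vamp2, 0.020 for Syt1, 0.059 for Ctbp2, 0.0057 for Syt7, 0.017 for Syn1, 0.015 for Syngr1, 0.012 for Slc17a7, 0.0075 for Cplx1, 0.044 for Rph3a, 0.049 for Scamp5, 0.015 for Dnm1 and 0.021 for Cltc without W2 and W5 together; 0.0034 for Rph3a, 0.0025 for Scamp5 and 0.0039 for Dnm1 with upper-quartile factors. On leaving out 1 library at a time, the same happened in 22 uncalled genes, with ranges of Syt5 from -0.0018 to 0.14, Stx3 from -0.0063 to 0.088, Nsf from -0.0033 to 0.075, Synpr from -0.025 to 0.11, Bsn from -0.0073 to 0.076, Syt11 from -0.011 to 0.060, Syp from -0.021 to 0.066, Pclo from -0.066 to 0.099, Snap25 from -0.033 to 0.070, Sv2b from -0.079 to 0.047, Vamp2 from -0.033 to 0.019, Syt1 from -0.066 to 0.00039, Ctbp2 from -0.066 to 0.0021, Syt7 from -0.076 to 0.00094, Vamp1 from -0.18 to 0.020, Cadps from -0.034 to 0.086, Rph3a from -0.051 to 0.040, Napb from -0.00079 to 0.061, Sncb from -0.053 to 0.050, Scamp5 from -0.055 to 0.029, Unc119 from -0.013 to 0.077 and Dnm1 from -0.047 to 0.049. No paired analysis was possible because the labels carry no replicate numbers. The low number of reads limits the values of Rims1 (1 read) and of the scaffold copy of Rab3a (115 reads). Why these rows hold so few reads was not tested.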
